A study of Danio rerio with 11 samples.

Results

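Genes that mark hepatic stellate cells, or the contractile and matrix-forming state these cells take on when activated, were examined in dissected livers of zebrafish larvae at 5 dpf (120 hpf). The 10 genes were chosen by name: hand2, colec11, colec10, pdgfrb, acta2, tagln, desma, lratb.2, tgfb1a and timp2b. They corresponded to 13 of the 32105 gene IDs counted. For tagln, desma and timp2b the names matched 2 IDs each, and the available names do not say which ID is which zebrafish copy, so both IDs are given for these genes. Expression was measured by RNA-seq after removal of ribosomal RNA in 5 pools of hUHRF1 livers and 6 pools of livers from their WT siblings. The hUHRF1 larvae carry Tg(fabp10a:hUHRF1-EGFP)high, which places human UHRF1 fused to EGFP under the hepatocyte promoter fabp10a and was identified by EGFP fluorescence, whereas the siblings lack the transgene. The labels name no treatment of the larvae beyond anaesthesia before dissection. Each pool held between 27 and 30 hUHRF1 livers or 20 WT livers from a single clutch. Clutches 4, 6, 7, 8 and 9 gave a pool of each condition and clutch 5 a WT pool only.

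Stellate cells lie between the hepatocytes and the sinusoidal endothelium, where they store vitamin A and make matrix and growth factors. On liver injury they can become myofibroblasts, losing their vitamin A stores while gaining smooth muscle actin and collagen. TGF-β and PDGF are the best known signals for this change. In zebrafish, hand2 encodes a transcription factor used to mark stellate cells, and the collectins colec10 and colec11 are secreted lectins that mark them in several species. The fabp10a promoter drives the transgene in hepatocytes and is not known to act in stellate cells. The comparison of hUHRF1 with WT livers asked whether stellate genes differed and whether those of activation did.

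Counts were scaled with TMM factors, which allow for a shift in the makeup of the RNA, and levels are given in CPM, the share of a gene in the scaled total of its library. Total counts ranged from 9064943 to 19370497 in hUHRF1 pools and from 15285359 to 23322479 in WT pools. The TMM factors did not overlap between hUHRF1 pools (1.12 to 1.71) and WT pools (0.672 to 0.978). They set the level against which every fold change is read, since the median L2FC (log2 fold change) of all tested genes was 0.05 with TMM and 0.83 with library size alone. The summed level of 13 hepatocyte markers was 16250 to 39294 CPM in hUHRF1 pools and 55269 to 97183 CPM in WT pools. Of the 13, 11 were lower, against 14.6% of all tested genes. In whole livers, a larger share of a cell type and more RNA per cell of that type cannot be told apart. The hUHRF1 pools of clutches 7 and 9 stood apart by the levels of skeletal muscle and exocrine pancreas markers. Their skeletal muscle markers summed to 1599 and 1049 CPM, against 77.0 to 380 CPM in the other 9 libraries, and their exocrine pancreas markers summed to 7677 and 11117 CPM, against 650 to 3039 CPM. Results that rest on these pools are therefore also given without them, a choice made after the data were seen.

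Of the 13 IDs, 10 passed the filter on low counts and entered the quasi-likelihood test of edgeR, with adjustment over all 15838 tested genes. The genes hand2, pdgfrb, tgfb1a and tagln (ENSDARG00000033466) were higher in hUHRF1 livers, 0 were lower, and 6 did not pass an adjusted p of 0.05. Among all tested genes, 14.5% were called higher and 14.6% lower. All 10 tested IDs had an L2FC above 0, between 0.28 and 1.05, and their median was 0.76. The median of these members was 1.55 with library size alone, where all 10 were called higher, as were 52.1% of all tested genes. Without the hUHRF1 pools of clutches 7 and 9, hand2 and pdgfrb were called, against 10.7% of all tested genes called higher, and the median of the members was 0.41.

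**Figure D1:**
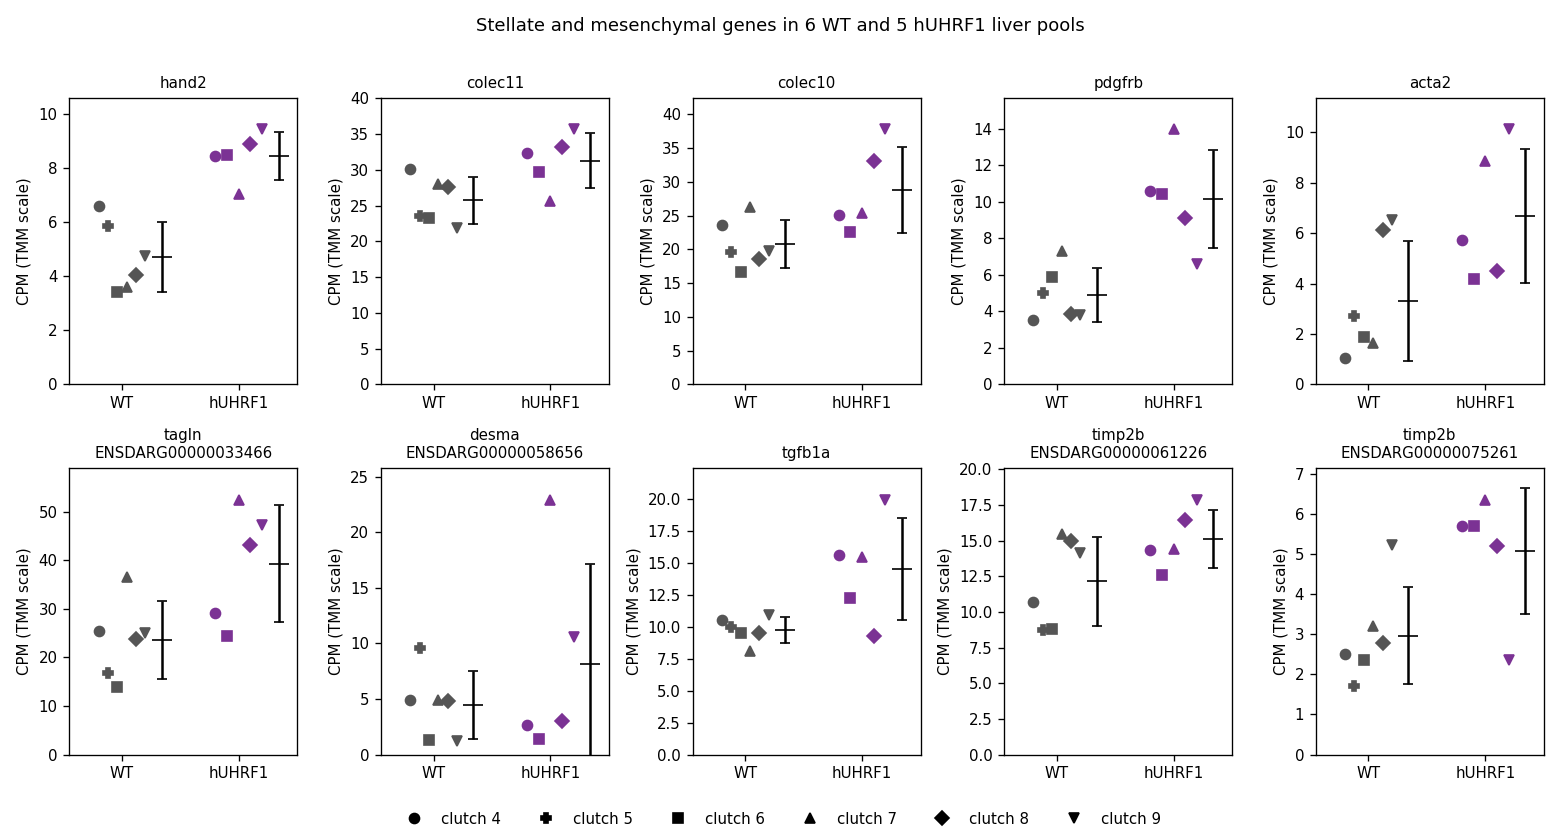
Level of each tested ID (CPM on the TMM scale, y axes from 0) in 6 WT and 5 hUHRF1 liver pools. Each point is a library, its shape gives the clutch, and the bar beside each group is the mean ± SD, drawn down to 0 at most. For hand2 alone every hUHRF1 pool, at 7.04 CPM or more, lies above every WT pool, at 6.62 CPM or less.

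The transcription factor gene hand2 (ENSDARG00000008305) had 8.44, 8.50, 7.04, 8.88 and 9.44 CPM in the hUHRF1 pools of clutches 4, 6, 7, 8 and 9. In the 6 WT pools its lowest, median and highest levels were 3.42, 4.40 and 6.62 CPM. The lowest hUHRF1 pool was thus above the highest WT pool, a separation in that direction found for 8.05% of all tested genes. The mean was 8.46 ± 0.888 CPM (SD, n = 5) against 4.71 ± 1.29 CPM (SD, n = 6), an L2FC of 0.84 (SE 0.21, edgeR adjusted p = 0.0092), or 1.79-fold. Within clutches the hUHRF1 pool was higher in 5 of 5, by 0.34 on the log2 scale in clutch 4 and by 0.94 to 1.28 in the other clutches. The L2FC was 0.86 without the hUHRF1 pools of clutches 7 and 9, and the gene remained called when any single library was left out. It was 0.67 in clutches 4 to 6 alone, where the call was lost (edgeR adjusted p = 0.24). That fit held only the hUHRF1 pools of clutches 4 and 6 and the WT pools of clutches 4, 5 and 6.

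The collectins colec10 and colec11 bind sugars on cell surfaces and start the lectin pathway of complement. For colec11 (ENSDARG00000013266) the hUHRF1 pools had 32.3, 29.6, 25.6, 33.1 and 35.6 CPM in clutch order, and the WT pools ran from 21.8 through a median of 25.6 to 30.1 CPM. The groups overlapped, with the hUHRF1 pool of clutch 7 below several WT pools, and the L2FC of 0.28 (SE 0.15) was not called (edgeR adjusted p = 0.17). For colec10 (ENSDARG00000104752) the hUHRF1 pools had 25.1, 22.5, 25.4, 33.1 and 37.8 CPM, and the WT pools ran from 16.6 through 19.7 to 26.3 CPM. The pools of clutches 8 and 9 were the highest, the other hUHRF1 pools lay below the highest WT pool, and the L2FC of 0.47 (SE 0.18) missed the threshold (edgeR adjusted p = 0.061). It was called when the hUHRF1 pool of clutch 6 or the WT pool of clutch 7 was left out (lowest edgeR adjusted p = 0.039), and at an L2FC of 0.55 under a filter that asked for 10 counts or more in each library (edgeR adjusted p = 0.028). Without the hUHRF1 pools of clutches 7 and 9 the L2FC of colec10 was 0.37 and not called (edgeR adjusted p = 0.21). In clutches 4 to 6 alone it was 0.24 (edgeR adjusted p = 0.52), and with clutch as a block 0.45 (edgeR adjusted p = 0.073), again without a call. In both genes the hUHRF1 pool was the higher in 4 of 5 clutches, with clutch 7 the exception.

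**Figure D2:**
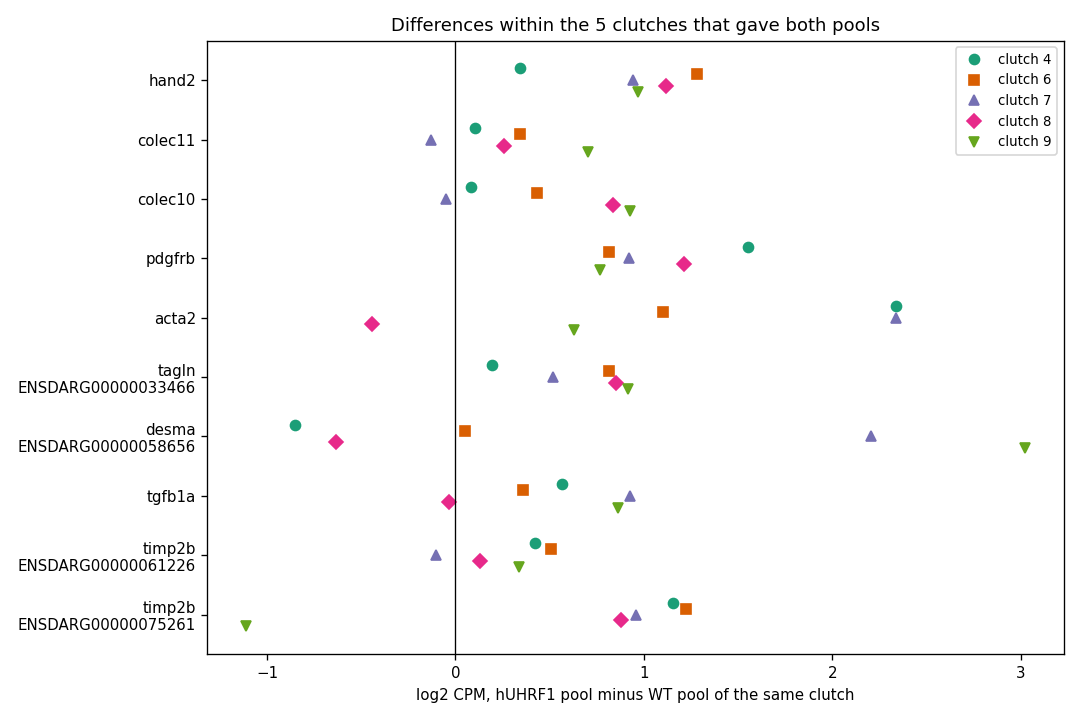
Difference in log2 CPM between the hUHRF1 and the WT pool of the same clutch (x axis) for each tested ID (rows), with 1 point per clutch. The points of hand2, pdgfrb and tagln all lie right of 0, those of acta2 run from -0.44 to 2.34, and those of desma from -0.85 to 3.02.

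The receptor gene pdgfrb (ENSDARG00000100897), through which PDGF drives the growth and migration of stellate cells and pericytes, had the largest L2FC of the tested IDs. The hUHRF1 pools had 10.6, 10.4, 14.0, 9.13 and 6.57 CPM in clutch order, and the WT pools ran from 3.53 through a median of 4.43 to 7.30 CPM. The groups overlapped because the hUHRF1 pool of clutch 9 lay below the WT pool of clutch 7, while within clutches the hUHRF1 pool was higher in 5 of 5. The mean of 10.1 ± 2.68 CPM (SD, n = 5) compared with 4.90 ± 1.48 CPM (SD, n = 6), an L2FC of 1.05 (SE 0.24, edgeR adjusted p = 0.0057), or 2.07-fold. The L2FC was 1.03 without the hUHRF1 pools of clutches 7 and 9, and between 0.91 and 1.19 with any single library left out, and the gene was called in each of these fits. Neither clutches 4 to 6 alone nor clutches 7 to 9 alone gave a call (edgeR adjusted p = 0.058 and 0.10), although the L2FC of 0.98 in clutches 7 to 9 was close to that of all libraries.

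The cytokine gene tgfb1a (ENSDARG00000041502), a zebrafish copy of TGFB1, had 15.6, 12.2, 15.5, 9.29 and 20.0 CPM in the hUHRF1 pools. The WT pools lay close together, from 8.08 through a median of 9.76 to 10.9 CPM. All hUHRF1 pools except that of clutch 8 were above every WT pool. The L2FC was 0.57 (SE 0.19, edgeR adjusted p = 0.037). This call was kept in 3 of the 11 fits that left out a single library, and without the hUHRF1 pools of clutches 7 and 9 the L2FC was 0.34 and not called (edgeR adjusted p = 0.26). The call was also lost without the low-count filter, at an L2FC of 0.54 (edgeR adjusted p = 0.085).

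Smooth muscle α-actin, encoded by acta2 (ENSDARG00000045180), is the usual marker of activated stellate cells and is also made by vascular smooth muscle. It had 5.71, 4.19, 8.86, 4.48 and 10.1 CPM in the hUHRF1 pools, while WT pools ran from 1.03 through a median of 2.29 to 6.50 CPM. The WT pools of clutches 8 and 9 were as high as hUHRF1 pools, whereas the other WT pools lay below all of these. The mean was 6.67 ± 2.67 CPM (SD, n = 5) against 3.32 ± 2.39 CPM (SD, n = 6), and the L2FC of 1.01 (SE 0.45) was not called (edgeR adjusted p = 0.11). With clutch as a block the L2FC was 1.17 and the gene was called (edgeR adjusted p = 0.047). A fit with a term for clutches 4 to 6 against 7 to 9 also called it, at 1.01 (edgeR adjusted p = 0.048), as did the fit without the WT pool of clutch 9, at 1.30 (edgeR adjusted p = 0.049). Without the hUHRF1 pools of clutches 7 and 9, the highest of all libraries for acta2, the L2FC was 0.53 and not called (edgeR adjusted p = 0.49). Actin genes are close in sequence, and how reads that match several of them were treated is not given in the sources used here.

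Transgelin, encoded by tagln, is an actin-binding protein of smooth muscle and myofibroblasts. The ID ENSDARG00000033466 had 29.1, 24.4, 52.5, 43.1 and 47.3 CPM in the hUHRF1 pools, and WT pools ran from 13.8 through a median of 24.4 to 36.6 CPM. The hUHRF1 pools of clutches 7 to 9 were above every WT pool and those of clutches 4 and 6 were within the WT range, although within clutches the hUHRF1 pool was higher in 5 of 5. The L2FC of 0.74 (SE 0.26) was called narrowly (edgeR adjusted p = 0.047), and the call was kept in 3 of the 11 fits that left out a library. It was lost without the hUHRF1 pools of clutches 7 and 9, where the L2FC was 0.44 (edgeR adjusted p = 0.29), and, at L2FCs of 0.70 to 0.71, without the filter (edgeR adjusted p = 0.062), with DESeq2's size factors in edgeR (adjusted p = 0.059) and with DESeq2 itself (adjusted p = 0.057). The other ID named tagln, ENSDARG00000045408, was too low to be tested in the fit, with 13, 24, 9, 2 and 1 counts in the hUHRF1 pools and 2 to 9 counts in the WT pools. Its groups overlapped (two-sided exact permutation test on CPM, unadjusted p = 0.20). RefSeq also lists a related gene, tagln2, which carries no name among the IDs counted, so either ID may be that gene.

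Desmin is the intermediate filament protein of muscle and also of stellate cells, most clearly in rodents. The ID ENSDARG00000058656, matched to desma, had 2.67, 1.37, 22.9, 3.04 and 10.5 CPM in the hUHRF1 pools, and WT pools ran from 1.19 through a median of 4.83 to 9.60 CPM. The pools of clutches 7 and 9 were the highest of all libraries, and the other hUHRF1 pools lay inside the WT range. The L2FC of 0.86 (SE 0.68) was not called (edgeR adjusted p = 0.36). It was -0.041 without the hUHRF1 pool of clutch 7 and -0.93 without those of clutches 7 and 9. The same pools had the highest sums of skeletal muscle markers, in which pvalb1 and myhz1.1 had the highest mean levels in hUHRF1 pools (144 and 123 CPM). Of the 13 skeletal muscle markers, 2 were higher and 0 lower, against 14.5% and 14.6% of all tested genes, and their median L2FC was 0.93. Without these pools 1 was higher, against 10.7% of all tested genes, and the median L2FC was -0.55. The other ID, ENSDARG00000005221, had 23, 12, 11, 2 and 8 counts in the hUHRF1 pools and 0 to 5 counts in the WT pools and was not tested in the fit. In CPM it was 0.606 ± 0.394 (SD, n = 5) against 0.238 ± 0.181 (SD, n = 6), with overlap (two-sided exact permutation test, unadjusted p = 0.054, 1 of 3 such tests).

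**Figure D3:**
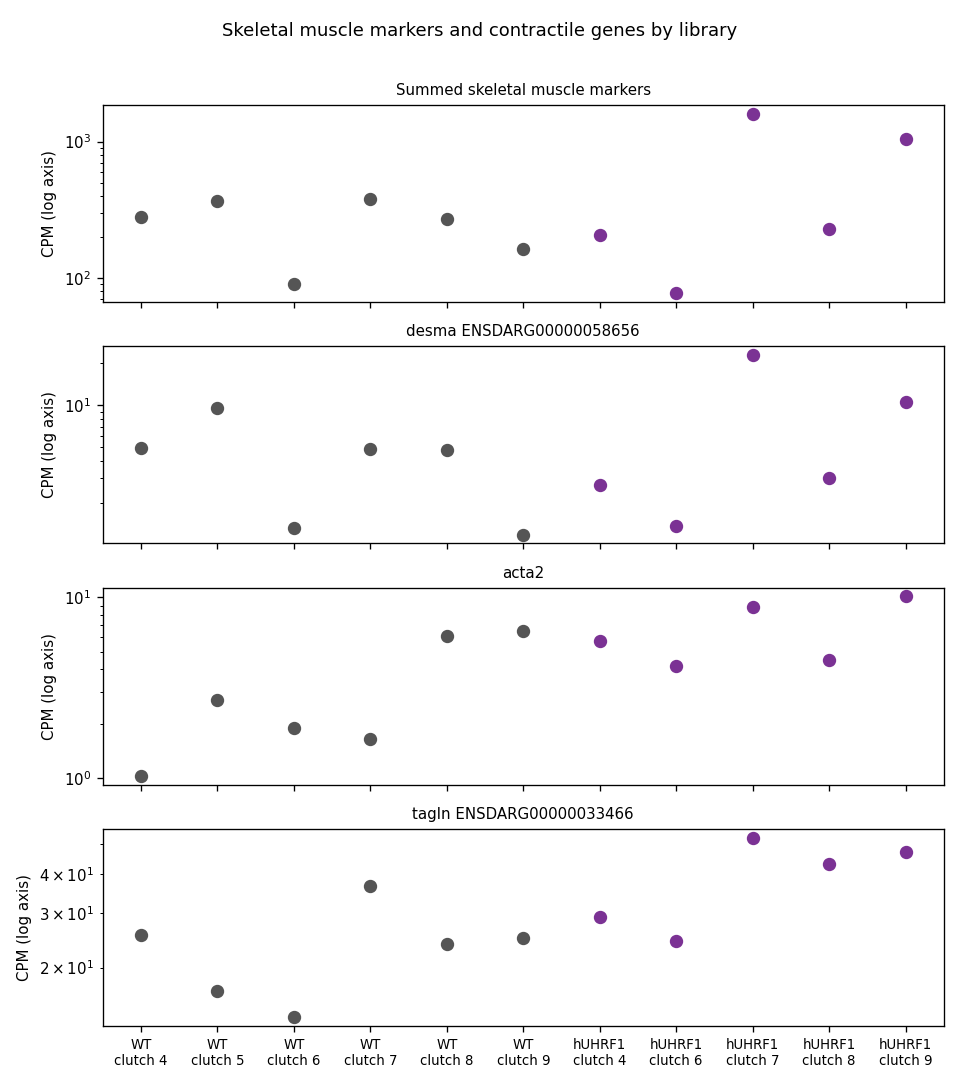
Summed skeletal muscle markers, desma (ENSDARG00000058656), acta2 and tagln (ENSDARG00000033466) in each library (CPM, log axes, points coloured by condition as labelled on the x axis). The muscle markers, desma, acta2 and tagln are all highest in the hUHRF1 pools of clutches 7 and 9. In the hUHRF1 pools of clutches 4 and 6 acta2, at 5.71 and 4.19 CPM, lies above the WT pools of the same clutches. In clutch 8 it lies below, at 4.48 CPM in the hUHRF1 pool against 6.14 CPM in the WT pool.

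Vascular and visceral smooth muscle also makes acta2 and tagln. Smooth muscle markers summed to 21.8 to 40.2 CPM in hUHRF1 pools and 20.8 to 37.6 CPM in WT pools, and the 4 tested had edgeR adjusted p-values of 0.085 to 0.42. Endothelial markers summed to 296 to 348 against 252 to 368 CPM, and 3 of 11 were higher, against 14.5% of all tested genes. Macrophage markers summed to 52.4 to 79.0 against 18.2 to 36.0 CPM without overlap, and 9 of 12 were higher, against the same 14.5%. Their part in the results above was not tested.

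Tissue inhibitors of metalloproteinases protect newly formed matrix, and TIMP2 is made by mesenchymal cells. Of the IDs named for it, ENSDARG00000075261 had 5.71, 5.71, 6.36, 5.20 and 2.36 CPM in the hUHRF1 pools, and WT pools ran from 1.71 through a median of 2.64 to 5.23 CPM. The hUHRF1 pool of clutch 8 lay just below the highest WT pool, that of clutch 9, at 5.20 against 5.23 CPM. The hUHRF1 pool of clutch 9 fell among the WT pools and below the WT pool of its own clutch. The L2FC of 0.78 (SE 0.32) was not called (edgeR adjusted p = 0.079), but it was 0.95 and called without that hUHRF1 pool (edgeR adjusted p = 0.029). It was 1.01 and called without the WT pool of clutch 9 (edgeR adjusted p = 0.024), and 0.87 and called under the filter of 10 counts or more in each library (edgeR adjusted p = 0.041). With clutch as a block the L2FC was 0.68 and not called (edgeR adjusted p = 0.16). Without the hUHRF1 pools of clutches 7 and 9 it was 0.90 and not called (edgeR adjusted p = 0.066). In clutches 4 to 6 alone it was 1.36 and called (edgeR adjusted p = 0.044), whereas in clutches 7 to 9 alone it was 0.30 (edgeR adjusted p = 0.67). The difference between these sets of clutches was not tested. The other ID, ENSDARG00000061226, was more even, at 15.1 ± 2.04 CPM (SD, n = 5) against 12.1 ± 3.09 CPM (SD, n = 6), an L2FC of 0.32 (SE 0.19, edgeR adjusted p = 0.23).

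The last member, lratb.2, is a copy of the gene for lecithin retinol acyltransferase, the enzyme that esterifies vitamin A for storage. It had 1, 2, 2, 0 and 0 counts in the hUHRF1 pools and 0 counts in each of the 6 WT pools, all at or under the floor of 3 counts per library. No fold of lratb.2 is given, and its counts were too low at this depth to establish expression. Its groups overlapped (two-sided exact permutation test on CPM, unadjusted p = 0.061, 1 of 3 such tests). Its neighbour in RefSeq's gene order, lratb.1, had 11 counts over all hUHRF1 pools and 17 over all WT pools. The copy named LRAT (ENSDARG00000037278) was the only one to be tested, at 0.751 ± 0.382 against 1.18 ± 0.804 CPM, and its L2FC of -0.65 was not called (edgeR adjusted p = 0.36).

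**Figure D4:**
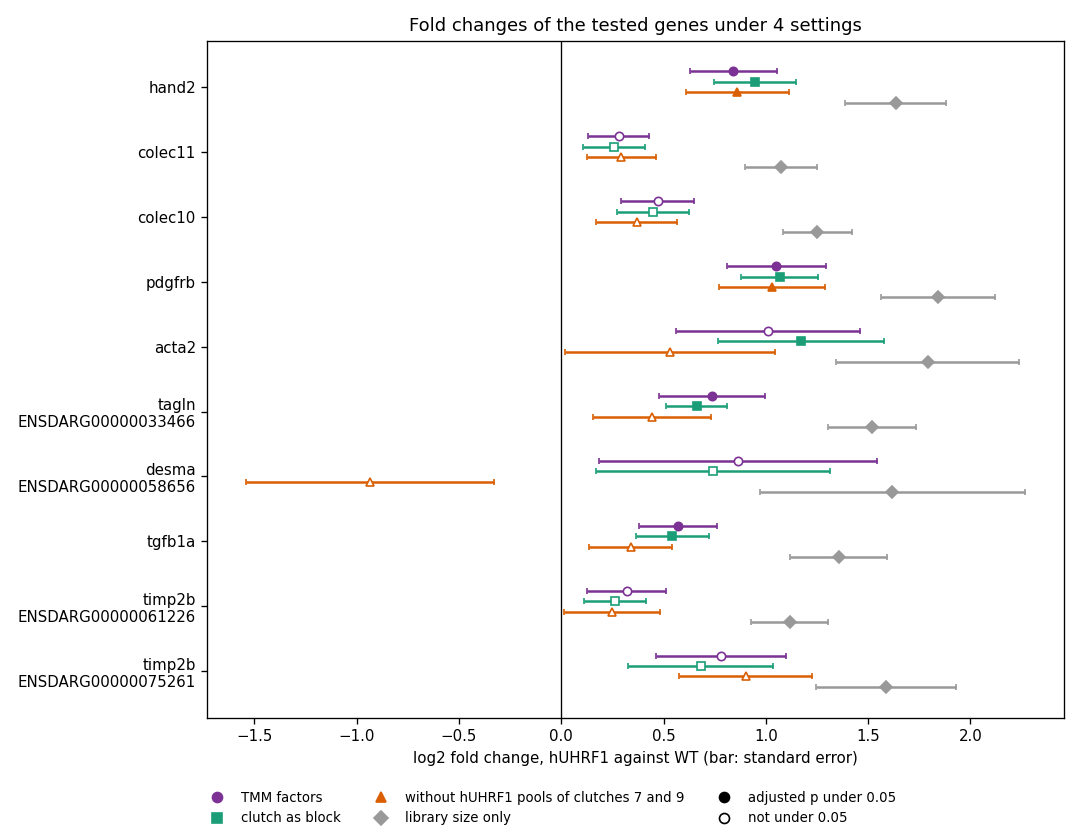
L2FC of hUHRF1 against WT livers (x axis, bars: SE) for the tested IDs with TMM factors, with clutch as a block, without the hUHRF1 pools of clutches 7 and 9, and with library size alone; filled symbols have an adjusted p under 0.05. All values with library size alone are called and lie right of the others, and that of desma (ENSDARG00000058656) turns to -0.93 without these pools.

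The proportions of members to each other within a library do not depend on the scaling. For every count of hand2, the hUHRF1 pools held 3.69 ± 0.136 counts of colec11 (SD, n = 5) and the WT pools 5.77 ± 1.56 (SD, n = 6). The highest hUHRF1 pool had 3.83 and the lowest WT pool 4.03, so the groups did not overlap. Of all other tested genes, 27.3% also had every hUHRF1 pool below every WT pool in this ratio, so the separation of colec11 was common. Counts of pdgfrb per count of hand2 were 1.24 ± 0.473 against 1.15 ± 0.586, and those of acta2 were 0.801 ± 0.347 against 0.752 ± 0.554. These and the other ratios to hand2, 8 of 9 in all, overlapped between hUHRF1 and WT pools. The ratios are descriptions and were not tested, and those of different genes are not comparable since gene length enters them.

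Across the 11 libraries, the members did not vary as a block once the mean of each condition was removed. The highest Pearson correlations of these deviations were 0.77 between tagln (ENSDARG00000033466) and timp2b (ENSDARG00000061226), 0.74 between that tagln ID and colec10, and 0.65 between colec10 and colec11. The lowest was -0.67 between hand2 and pdgfrb. Among 10055 genes whose mean log2 CPM was 2 or more, SH3GL1 and PDK1 (both 0.89) were nearest to hand2, followed by RPS26, TAX1BP1 and si:ch211-286b5.5. The nearest to colec11 was the unnamed ID ENSDARG00000097289 (0.89), followed by rgl2, NR2C2, WIPF2 and rrp36. The nearest to pdgfrb was DAP3 (0.94), followed by SLC17A9, txndc11, PDHX and TBL3, and the nearest to acta2 was MAPKAPK2 (0.91), with serinc2, pip5k1aa and PLOD2 also among the nearest. These correlations describe 11 points that share their libraries and scaling.

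Genes of the pathways around the members were then counted from lists that include the members belonging to them. Over all lists, 131 genes were tested, of which 35 were higher and 12 lower, where 14.5% and 14.6% of all tested genes were. With library size alone, 94 were higher and 6 lower, against 52.1% and 3.85% of all tested genes. Without the hUHRF1 pools of clutches 7 and 9 the numbers were 22 and 12, against 10.7% and 11.9% of all tested genes. These shares over all genes are the background for the counts of each list, and the median L2FC of all tested genes was 0.05 with all pools.

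Among 11 genes of TGF-β ligands and their release, 4 were higher and 1 lower, with a median L2FC of 0.57. Thrombospondin, which can free TGF-β from its latent complex, was higher as THBS1 (ENSDARG00000103775), at 8.66 ± 4.85 against 2.50 ± 0.953 CPM (L2FC 1.79, edgeR adjusted p = 0.0030), whereas the other THBS1 ID, ENSDARG00000010785, had an L2FC of -0.02 and was not called (edgeR adjusted p = 0.97). The integrin subunit itgav was higher at an L2FC of 0.54 (edgeR adjusted p = 0.024), as was the second zebrafish copy of TGFB1, tgfb1b, at 0.81 (edgeR adjusted p = 0.038). The protease FURIN (ENSDARG00000062909), which cleaves the TGF-β precursor, was lower at 78.5 ± 17.4 against 197 ± 52.0 CPM (L2FC -1.33, edgeR adjusted p = 0.00065), and the other FURIN ID, ENSDARG00000070971, had an L2FC of -0.04 (edgeR adjusted p = 0.96). Of this list, 2 genes were higher and 1 lower without the hUHRF1 pools of clutches 7 and 9.

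Among 20 TGF-β receptors, SMADs and SMAD regulators, 2 were higher and 2 lower, with a median L2FC of 0.15. The receptor TGFBR1 (ENSDARG00000017494) was lower at 7.89 ± 1.46 against 25.9 ± 6.31 CPM (L2FC -1.71, edgeR adjusted p = 6.9e-05). The other TGFBR1 ID, ENSDARG00000042259, had an L2FC of -0.38 and was not called (edgeR adjusted p = 0.30). The endothelial receptor acvrl1 was higher (L2FC 1.17, edgeR adjusted p = 0.0022), as was the co-receptor TGFBR3 (L2FC 0.75, edgeR adjusted p = 0.0099), and the SMAD co-repressor skilb was lower (L2FC -0.94, edgeR adjusted p = 0.015). The related genes skib (L2FC 0.98, edgeR adjusted p = 0.052), SKIL (0.62, edgeR adjusted p = 0.11) and SKI (0.40, edgeR adjusted p = 0.25) lay above 0 and were not called. Of 12 tested target genes of TGF-β, tagln and a POSTN ID (ENSDARG00000043806, periostin, L2FC 1.28, edgeR adjusted p = 0.013) were higher and 0 were lower. The widely used target CCN2 had an L2FC of 0.55 and was not called (edgeR adjusted p = 0.41). Neither call was kept without the hUHRF1 pools of clutches 7 and 9, and 5 of the 12 targets were called with clutch as a block, where 17.1% of all tested genes were called higher.

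Among 6 tested PDGF ligands and receptors, 3 were higher and 0 lower. Besides pdgfrb these were PDGFRA, a receptor of many mesenchymal cells, at 20.6 ± 3.92 against 7.38 ± 2.42 CPM (L2FC 1.48, edgeR adjusted p = 0.00035), and the ligand PDGFC, at 3.21 ± 0.939 against 0.851 ± 0.349 CPM (L2FC 1.88, edgeR adjusted p = 0.0012). For both genes the lowest hUHRF1 pool exceeded the highest WT pool, as it did for 8.05% of all tested genes. The number called was again 3 without the hUHRF1 pools of clutches 7 and 9.

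Genes of vitamin A storage and transport went in both directions, with 4 of 16 higher and 4 lower and a median L2FC of -0.43. The retinol carrier RBP4, a secreted protein of hepatocytes, was lower at 2619 ± 1066 against 13158 ± 2015 CPM (L2FC -2.33, edgeR adjusted p = 0.00015), and the retinol dehydrogenase rdh1 was lower at an L2FC of -1.63 (edgeR adjusted p = 0.0016). ALDH1A2, which makes retinoic acid, was higher at 17.1 ± 10.6 against 2.00 ± 0.854 CPM (L2FC 3.08, edgeR adjusted p = 0.00019). Its hUHRF1 pools all lay above every WT pool, as in 8.05% of all tested genes.

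Among 26 contractile and myofibroblast genes, 8 were higher and 0 lower, with a median L2FC of 0.73. They were led by the calponin CNN2, at 58.7 ± 10.1 against 24.2 ± 7.45 CPM (L2FC 1.28, edgeR adjusted p = 0.00075), the myosin light chain MYL9 (ENSDARG00000008030, L2FC 0.86, edgeR adjusted p = 0.0017) and myl6 (L2FC 1.48, edgeR adjusted p = 0.0064). In these 3 genes every hUHRF1 pool was above every WT pool, as in 8.05% of all tested genes. The 18 other genes were not called, among them acta2, both MYH11 IDs, smtnb and TPM2. Without the hUHRF1 pools of clutches 7 and 9, 4 genes of this list were higher and 1 lower, and its median was 0.37.

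Among 22 genes of fibrillar matrix, 10 were higher and 1 lower, with a median L2FC of 0.84. The IDs named FN1 (fibronectin) moved in opposite directions. ENSDARG00000006526 was lower at 331 ± 141 against 2654 ± 664 CPM (L2FC -3.00, edgeR adjusted p = 4.1e-05), and ENSDARG00000019815 was higher at 34.3 ± 19.0 against 7.31 ± 3.06 CPM (L2FC 2.23, edgeR adjusted p = 0.00066). Fibronectin is secreted by hepatocytes as well as by mesenchymal cells. The collagen gene COL5A1 was higher at 33.1 ± 17.2 against 11.1 ± 2.47 CPM (L2FC 1.58, edgeR adjusted p = 0.0011). Of the type I collagen genes, COL1A2 was higher (L2FC 0.90, edgeR adjusted p = 0.037). The IDs named col1a1a (L2FC 0.84, edgeR adjusted p = 0.059) and COL1A1 (L2FC 0.72, edgeR adjusted p = 0.053) were not called. Of the matrix list, 5 genes were higher and 1 lower without the hUHRF1 pools of clutches 7 and 9, and the median was 0.44.

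Among 13 TIMPs and matrix metalloproteinases, 2 were higher and 1 lower, with a median L2FC of 0.22. The membrane protease MMP14 was higher by both of its IDs (ENSDARG00000002235, L2FC 1.60, edgeR adjusted p = 0.00049, and ENSDARG00000008388, L2FC 1.04, edgeR adjusted p = 0.011), and MMP23B was lower (L2FC -1.21, edgeR adjusted p = 0.0099). Of these 13, 1 was higher and 0 lower without the hUHRF1 pools of clutches 7 and 9, and the median was 0.06.

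Another list held genes around the lectin pathway of complement, to which the collectins colec10 and colec11 belong. Of its 9 genes, 2 were higher and 3 lower, with a median L2FC of 0.00. The protease MASP2, which the collectins bind and which hepatocytes secrete, was lower at 15.5 ± 5.32 against 85.0 ± 22.8 CPM (L2FC -2.45, edgeR adjusted p = 2.6e-05). So were c4, at 4.36 against 15.9 CPM (L2FC -1.89, edgeR adjusted p = 0.00078), and c3a.1 (L2FC -1.34, edgeR adjusted p = 0.0021). The more abundant c4b was not called, at 470 ± 131 against 470 ± 226 CPM (L2FC 0.001, edgeR adjusted p = 0.998). The membrane collectin COLEC12 was higher at 23.1 ± 5.98 against 9.93 ± 2.00 CPM (L2FC 1.22, edgeR adjusted p = 0.00053). The other higher gene was mbl2, with 166 counts over the hUHRF1 pools and 10 over the WT pools. Single hUHRF1 pools had 12 to 87 of these counts and single WT pools 0 to 5.

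**Figure D5:**
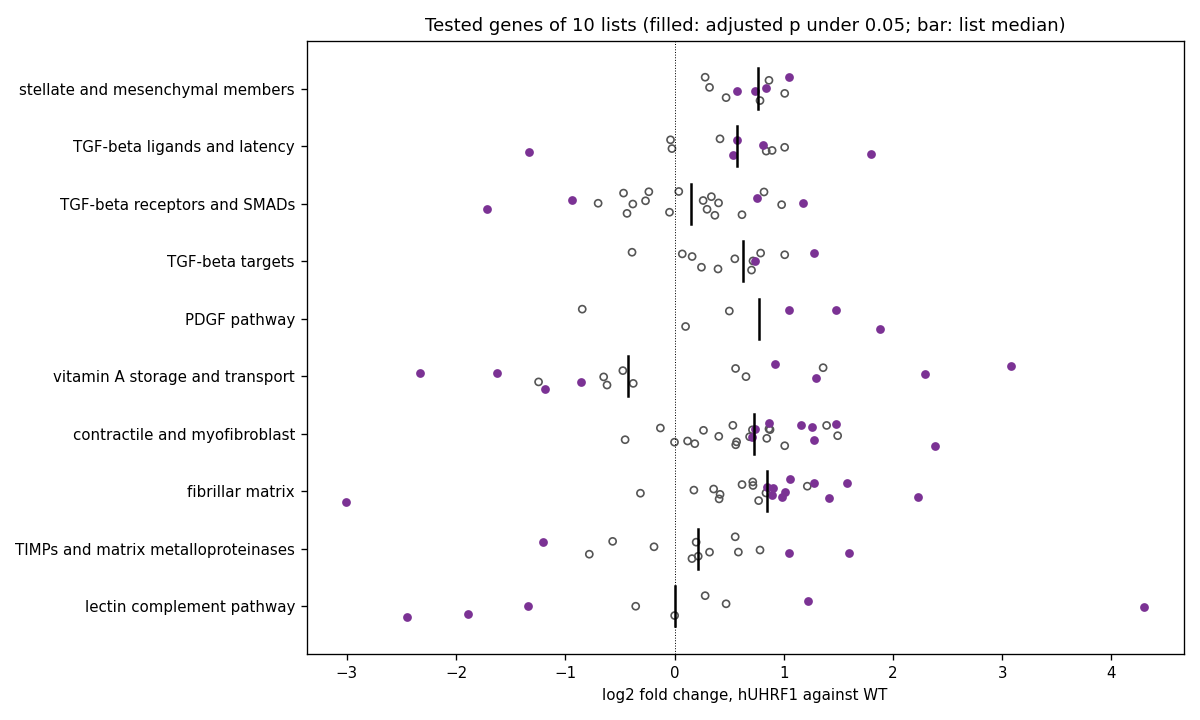
L2FC of hUHRF1 against WT livers (x axis) for each tested gene of 10 lists (rows), filled where the adjusted p is under 0.05, with a bar at the median of each list. The members lie right of 0 with a median of 0.76, and the vitamin A list runs from an L2FC of -2.33 for RBP4 to 3.08 for ALDH1A2.

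Of 16 tested markers of stellate cells, members among them, 3 were higher and 0 lower, where 14.5% and 14.6% of all tested genes were. The median L2FC of the 16 was 0.35, and the 3 higher genes are named next. These were pdgfrb, hand2 and TCF21, a transcription factor gene of the liver mesenchyme, at 4.85 ± 1.58 against 2.03 ± 0.490 CPM (L2FC 1.26, edgeR adjusted p = 0.0046). Every hUHRF1 pool was above every WT pool for TCF21, as in 8.05% of all tested genes. The other 13 were not called. Some of these lay below 0, such as LRAT (L2FC -0.65), gata4 (-0.24) and GATA6 (-0.15). Others lay above 0, such as NGFR (ENSDARG00000088708, 1.03), wt1b (0.76), WT1 (0.73), colec10 (0.47) and FOXF1 (0.41). Summed over the list, the markers had 270 to 399 CPM in hUHRF1 pools and 216 to 340 CPM in WT pools, with overlap. Without the hUHRF1 pools of clutches 7 and 9, 3 markers were higher, against 10.7% of all tested genes, and the median was 0.18.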

How the data were processed

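RNA-seq of 11 liver pools was used. The deposited values are counts per gene without normalization. Per the methods and labels, the authors aligned reads to GRCz10 with HISAT2 and counted them with HTSeq. Strand setting and annotation release are not given in the sources used here. The members and the lists around them were chosen with earlier results of these data known.

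Member names were matched in any case to the names of Ensembl IDs, then without the suffix of duplicated genes, then by RefSeq synonym. RefSeq's table is of another assembly and served for names and gene order only. A name was known for 26269 IDs. The software was edgeR 4.0.16 and DESeq2 1.42.0, with limma 3.58.1, under R 4.3.3. The filter was filterByExpr (minimum count 10, minimum total 15), which left 15838 of 32105 IDs. They were tested with TMM factors and edgeR's quasi-likelihood test, adjusted by Benjamini-Hochberg over all tested genes. Log2 CPM used a prior count of 2. IDs below the filter were compared with an exact permutation test (462 arrangements). No 2 libraries held identical values. The self-test on simulated data was run before the counts were tested.

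Same-numbered pools share a clutch per the labels, which pairs them. Their deviations from the condition means correlated at 0.206 to 0.481. Correlations between pools of different clutches are not given, so these values do not show what clutch adds. The unpaired fit is the main one and the fit with clutch as a block an alternative. The comparison was also run with library size alone, with the size factors of DESeq2, with DESeq2 itself, with other filters, with the set of clutches (4 to 6 or 7 to 9, whose titles are worded differently) as a term or alone, and with each library left out. Beside the members, the genes named are the 3 called genes with the smallest adjusted p of each list, copies of members, the 5 nearest in pattern to 4 members and leading markers. Some genes under this rule are not reported here, although counts over lists include them. Names outside this rule (CCN2, skilb, skib, SKIL, SKI, c3a.1, c4b, mbl2, gata4, GATA6, FOXF1, NGFR, WT1, wt1b, col1a1a, COL1A1, COL1A2, MYH11, smtnb, TPM2) were chosen after their values were seen. The p-values weigh the difference between conditions against the spread between pools. In the unpaired main fit this spread includes differences between clutches. Floors cover counting error only.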

Additional observations from a re-analysis of the deposited data

Results flagged for a closer look

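The timp2b ID ENSDARG00000075261 had 2.36 CPM in the hUHRF1 pool of clutch 9, far from the other hUHRF1 pools, which had 5.20 to 6.36 CPM. The gap to the nearest pool was 0.711 of the range of the 5 pools, just above Dixon's critical value of 0.71. This was 1 of 20 groups checked, and chance flags about 1 in 20.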

How the results depend on the processing

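Over all genes, 4612 DEGs were called, and with each library left out in turn between 3881 and 4504. The number of members called was 4, against 14.5% of all tested genes called higher. With a library left out it was between 2 and 5, against 12.1% to 14.4% of all tested genes called higher. It was 2 without the hUHRF1 pool of clutch 7 and without the WT pool of clutch 4, 5, 6 or 8. With library size alone, 8860 DEGs, 10 members and 100 genes of the related lists were called, against 47 of these list genes with TMM. Clutches 4 to 6 alone gave 1784 DEGs and 1 member, timp2b (ENSDARG00000075261), with all 4 calls of the full comparison lost, against 4.72% of all genes called higher. Clutches 7 to 9 alone gave 2541 DEGs and 1 member, hand2, against 7.71%. No filter on low counts gave 2 members of 13 tested, against 7.24% of all genes called higher. Leaving out the hUHRF1 pools of clutches 7 and 9, chosen after the data were seen, also gave 2 members, against 10.7%. A filter of 10 counts or more in each library gave 6 members, adding colec10 and timp2b (ENSDARG00000075261), against 17.5% of all genes called higher. With clutch as a replicate block, which uses the pairing, 5566 DEGs and 5 members were called, against 17.1% of all genes called higher, acta2 being the addition, and no other call of a member changed. The L2FC of desma (ENSDARG00000058656) turned to -1.41 in clutches 4 to 6 alone, -0.93 without the hUHRF1 pools of clutches 7 and 9 and -0.041 without that of clutch 7, in a range of -0.041 to 1.25 over the fits that left out a library. Of 210 values of members under alternatives, 162 kept their direction and side of the threshold, 29 lost a call, 16 gained one and 3 turned. The cause of these changes was not tested. Depth limits lratb.2 and the lower IDs of tagln and desma.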
